A study of Mus musculus with 18 samples.

Results

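The genes described here carry out antigen presentation by MHC class II molecules: Cd74, H2-Aa, H2-Ab1, H2-Eb1, H2-DMa, H2-DMb1 and Ciita. They were followed in cells of mouse small intestinal crypts, which had been sorted into gates by how brightly they showed a reporter of Flattop (Fltp, gene symbol Cfap126). The 7 genes were picked by symbol, and a gene counted as measured where the array annotation gave a probe set that symbol alone. This held for 6 of the 7, out of 19938 genes measured in all. H2-DMb1 shares its probe set with H2-DMb2 and has no value of its own here. All cells came from crypts of 4-month-old C57Bl6/J mice with the genotype FltpZV/+, so the cells of every gate carried the reporter allele. The gates were FVR high, FVR low and FVR negative, where FVR is the label's name for the reporter, and each gate had 2 arrays with RNA pooled from 2 animals per array. The labels do not say whether gates shared animals or whether white blood cells were removed, and the p-values below measure only the spread between these arrays. The other 12 of 18 samples, from a second line, are not analysed here.

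MHC class II molecules are pairs of an alpha and a beta chain that show peptides from endosomes to CD4+ T cells. The invariant chain, encoded by Cd74, escorts the new pair to the endosome and blocks its groove until proteases cut it away, and the H2-DM pair then exchanges the remnant for a peptide. Ciita is the co-activator that switches the whole gene set on, often downstream of interferon gamma, by docking on the factors RFX, CREB and NF-Y bound at the X and Y boxes of class II promoters. Dendritic cells, macrophages and B cells carry class II molecules as a rule, and epithelial cells of the small intestine, crypt cells included, are known to carry them too.

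Promoter sequences are shown for the class II genes in which a script found both boxes, since Ciita is known to act through these boxes. The sequences are RefSeq's, on build GRCm38.p6, and each searched window ran from 250 bases before to 50 bases after a gene's start. The search took GCAAC on the sense strand, a core of the X box, followed by ATTGG, the reverse complement of the CCAAT core of the Y box, with 28 to 36 bases between their first letters. That spacing was set after these promoters were read, so the match is a description. The pair occurred in 5 of the 10 class II region genes that had an entry, and in 0.21% of all 32851 promoters. Either core alone was common: CCAAT was found on either strand in 37.4% of promoters and GCAAC in 35.2%. The stretches around both cores are printed 5′ to 3′ on the gene's strand, with the 2 cores in capitals.
H2-Oa: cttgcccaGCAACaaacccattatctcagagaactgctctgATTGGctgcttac
H2-Ob: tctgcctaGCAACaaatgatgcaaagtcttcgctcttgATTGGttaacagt
H2-Aa: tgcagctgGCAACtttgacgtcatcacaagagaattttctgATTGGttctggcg
H2-Eb1: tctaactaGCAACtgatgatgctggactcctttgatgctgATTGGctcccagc
H2-Eb2: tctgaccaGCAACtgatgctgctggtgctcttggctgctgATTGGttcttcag

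The stretch of H2-Aa lies at chr17:34287859-34287912 on the minus strand, and that of H2-Eb1 at chr17:34305768-34305820 on the plus strand. The stretches of the other genes lie on the plus strand, H2-Oa at chr17:34092295-34092348, H2-Ob at chr17:34238810-34238860 and H2-Eb2 at chr17:34325535-34325587. In H2-Aa the cores begin 81 and 48 bases before the start, and a CREB core, TGACG, stands between them; that core occurs on either strand in 20.8% of all promoters. In H2-Eb1 the cores begin 91 and 59 bases before the start, and no TGACG was found in its window. The windows of H2-DMa, which has 2 starts, and H2-DMb1 hold no such pair, which says only that these letters at this spacing are not in them. The members H2-Ab1, Cd74 and Ciita had no promoter entry here and were not searched. The 250 bases before the start are given whole, with the same capitals, for the members H2-Aa (chr17:34287824-34288073, minus strand) and H2-Eb1 (chr17:34305617-34305866, plus strand).
H2-Aa: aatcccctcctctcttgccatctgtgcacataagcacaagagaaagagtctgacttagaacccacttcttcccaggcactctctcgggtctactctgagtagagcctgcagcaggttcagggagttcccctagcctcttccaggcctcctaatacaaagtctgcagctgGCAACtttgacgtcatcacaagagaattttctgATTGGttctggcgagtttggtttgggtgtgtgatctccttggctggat
H2-Eb1: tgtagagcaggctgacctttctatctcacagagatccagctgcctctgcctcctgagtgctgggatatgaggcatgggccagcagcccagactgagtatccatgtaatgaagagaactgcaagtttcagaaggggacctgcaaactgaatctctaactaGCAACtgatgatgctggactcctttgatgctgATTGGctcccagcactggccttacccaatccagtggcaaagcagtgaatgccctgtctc

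Values are the authors' RMA values, which are log2 signals. They compress differences near the floor, and a level cannot be set against that of another gene because each probe set has its own response. The background level was 4.23, below which 95% of 1203 olfactory and related receptor genes lay on average. All 6 measured genes were above it on each of the 6 arrays. Arrays had medians of 4.54 to 4.74 over all probe sets, and the pair of arrays correlated across genes at 0.946 in the high, 0.975 in the low and 0.981 in the negative gate. Of the epithelial markers of the labelled tissue, 12 of 12 were above background on average, with Epcam between 9.40 and 9.98 on all arrays. Cfap126 itself, the gene behind the reporter, lay between 4.79 and 6.13 and was not called in any comparison. Genes were tested with limma in 1 fit of all 6 arrays, and a gene is called where its p adjusted by Benjamini-Hochberg over all 19938 genes is under 0.05. The comparisons of high and of low with negative share the negative arrays, so their results are not independent.

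Class II genes had lower values in both reporter-positive gates, and for 3 of the 6 the difference passed the test. Cd74, H2-Ab1 and H2-Eb1 fell in high and again in low cells relative to negative cells, by 2.36-fold to 3.54-fold, while no member was called between high and low cells. In high against negative cells 3 of the 6 measured genes were called, all lower, where 3.35% of all genes were called lower. In low against negative cells the same 3 genes were called lower, where 2.54% of all genes were. The median difference of the 6 genes was -1.43 in high and -1.08 in low against negative cells on the log2 scale, beside 0.10 and -0.03 over all genes. In bulk samples of this kind, fewer cells with class II RNA and less of it per cell cannot be told apart.

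**Figure D1:**
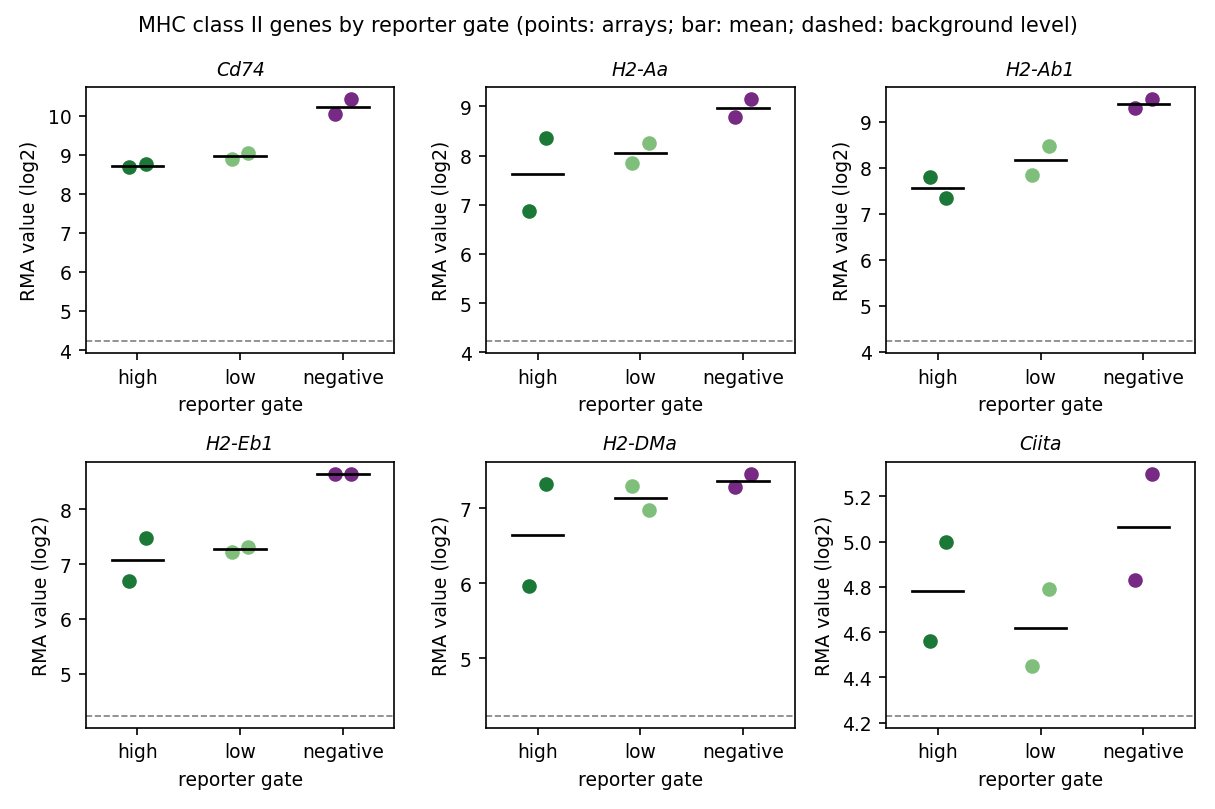
RMA values (log2) of the 6 measured MHC class II genes on each array, by reporter gate. Points are arrays, bars are means of 2 arrays and the dashed line is the background level of 4.23. For Cd74, H2-Aa, H2-Ab1 and H2-Eb1 both negative arrays lie above every high and low array.

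Cd74, the invariant chain, had RMA values of 8.68 and 8.76 on the high arrays, 8.88 and 9.03 on the low arrays, and 10.04 and 10.42 on the negative arrays. The negative arrays stood well above the rest, and the high arrays lay just below the low ones. The means were 8.72 ± 0.05 in high, 8.95 ± 0.11 in low and 10.23 ± 0.27 in negative cells (SD, n = 2 arrays each). Cd74 was 2.85-fold lower in high than in negative cells, a log2 difference of -1.51 ± 0.20 (SE; limma, adjusted p = 0.0172). It was 2.43-fold lower in low than in negative cells, with -1.28 ± 0.20 (limma, adjusted p = 0.0173). Cd74 kept its call under all 10 other settings of the fit and the scaling in both comparisons. It lost the call in high cells without either negative array (limma, adjusted p = 0.106 and 0.140), and in low cells without either low array (0.0975 and 0.0838) or either negative array (0.0765 and 0.130).

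H2-Ab1 encodes the beta chain of the I-A molecule, the class II molecule that C57BL/6 mice display. Its RMA values were 7.80 and 7.33 on the high arrays, 7.85 and 8.46 on the low arrays, and 9.29 and 9.49 on the negative arrays. All 3 gates were apart, with high lowest and negative highest, although the lower low array was within 0.05 of the higher high array. H2-Ab1 was 3.54-fold lower in high than in negative cells (-1.82 ± 0.27, SE; limma, adjusted p = 0.0207), and 2.36-fold lower in low than in negative cells (-1.24 ± 0.27; limma, adjusted p = 0.0497). The second value is barely under the threshold: it was lost in 5 of 10 other settings, with adjusted p between 0.0513 and 0.0644. In low cells it was also lost without either low array (limma, adjusted p = 0.214 and 0.0756) or either negative array (0.196 and 0.263). In high cells it was lost without replicate 2 of the high gate (0.0540) or either negative array (0.134 and 0.155).

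H2-Aa encodes the alpha chain that pairs with it. The RMA values of H2-Aa were 6.88 and 8.36 on the high arrays, 7.85 and 8.26 on the low arrays, and 8.79 and 9.15 on the negative arrays. Both negative arrays were above the other 4, but the high arrays were 1.47 apart and enclosed the low ones. Against negative cells its differences were -1.35 ± 0.46 in high cells (limma, adjusted p = 0.150) and -0.92 ± 0.46 in low cells (limma, adjusted p = 0.373), and neither was called. Without replicate 2 of the high gate the difference in high cells was -2.09, and without replicate 1 it was -0.62. Its size thus depended on which high array was kept.

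H2-Eb1 encodes the beta chain of the second class II molecule, I-E. RMA values of H2-Eb1 were 6.69 and 7.48 on the high arrays, 7.23 and 7.31 on the low arrays, and 8.64 and 8.65 on the negative arrays. The low arrays lay inside the range of the high arrays, and both gates were below the closely matched negative pair. It was 2.96-fold lower in high than in negative cells (-1.56 ± 0.28; limma, adjusted p = 0.0305) and 2.6-fold lower in low than in negative cells (-1.38 ± 0.28; limma, adjusted p = 0.0355). Quantile normalization of the arrays ended both calls (adjusted p = 0.1 in high and 0.0758 in low cells). A fit of only the high and negative gates ended the call in high cells (limma, adjusted p = 0.0600). Leaving out either low array gave that same fit, because a single low array adds no spread. The call in high cells was also lost without either negative array, at differences of -1.57 and -1.56. In low cells the call was lost without either low array (-1.34 and -1.42) or either negative array (-1.38 and -1.37). H2-Ea, the alpha chain that H2-Eb1 needs as partner, was not above background on any array, with values of 3.29 to 3.70. C57BL/6 mice are known to carry a deletion in the promoter of that gene and to display no I-E.

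H2-DMa encodes the alpha chain of the peptide exchanger. Its RMA values were 5.96 and 7.33 on the high arrays, 7.30 and 6.98 on the low arrays, and 7.28 and 7.46 on the negative arrays. Only replicate 1 of the high gate stood apart, 1.36 below its partner, and the other 5 arrays lay between 6.98 and 7.46. The difference was -0.72 ± 0.42 in high against negative cells (limma, adjusted p = 0.350) and -0.23 ± 0.42 in low against negative cells (limma, adjusted p = 0.897). In low cells the 95% interval ran from -1.22 to 0.77. Without replicate 2 of the high gate the difference in high cells was -1.40 and was called (limma, adjusted p = 0.0412), and without replicate 1 it was -0.04 (limma, adjusted p = 0.924).

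Ciita, the co-activator, had RMA values of 4.56 and 5.0 on the high arrays, 4.45 and 4.79 on the low arrays, and 4.83 and 5.30 on the negative arrays. The values were dim in every gate, and only the low arrays were wholly below the negative ones. The difference from negative cells was -0.29 ± 0.26 in high cells (limma, adjusted p = 0.537; 95% interval -0.90 to 0.33) and -0.44 ± 0.26 in low cells (limma, adjusted p = 0.472; 95% interval -1.06 to 0.18). These intervals leave room for a fall of 1.06 in low cells, and a gene this close to the floor has its differences compressed.

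**Figure D2:**
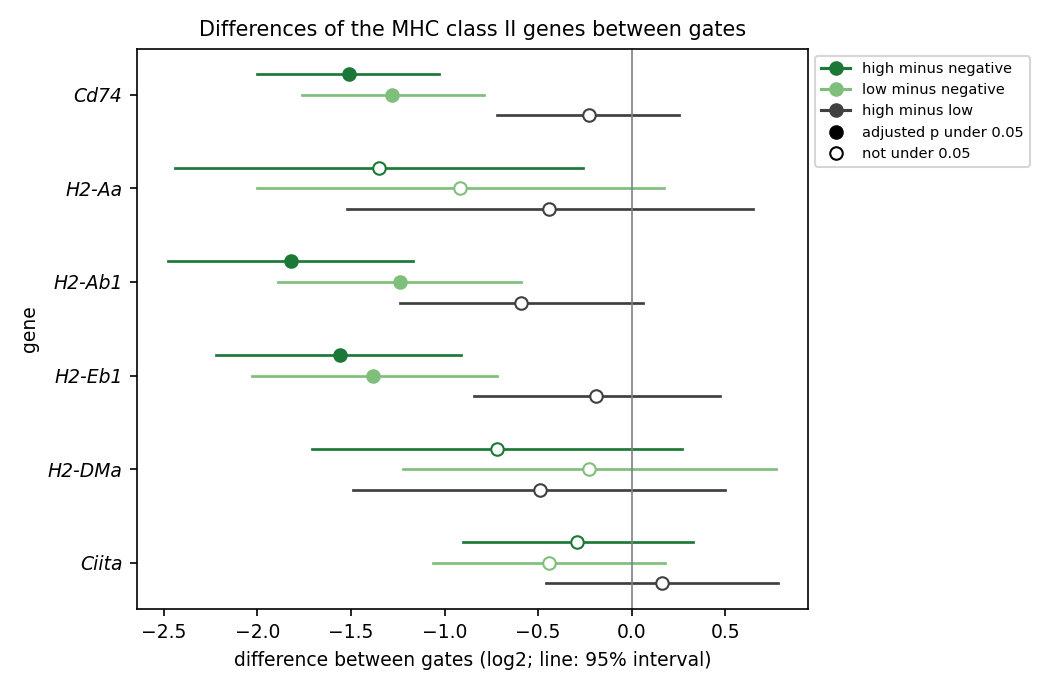
Log2 differences of each member between gates with 95% intervals from the limma fit. Filled points have an adjusted p under 0.05: Cd74, H2-Ab1 and H2-Eb1 in high minus negative and in low minus negative. The intervals of all 6 genes in high minus low cross 0.

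Counted by the arrays themselves, 4 of the 6 genes had both high arrays below both negative arrays, where 22.4% of all genes did. In low against negative cells 5 of the 6 genes had both low arrays below both negative arrays, where 28.5% of all genes did. H2-DMa was the gene that overlapped in both.

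Between the reporter-positive gates no member was called, which with 2 arrays per gate does not show that their levels were equal. High against low cells gave 0 calls among the 6 genes and 0 with an unadjusted p under 0.05 in the limma fit, where 3.89% of all genes were called lower, 1.01% higher and 4.91% in either direction. The differences were -0.23 for Cd74, -0.44 for H2-Aa, -0.59 for H2-Ab1, -0.19 for H2-Eb1, -0.49 for H2-DMa and 0.16 for Ciita on the log2 scale. Their median was -0.34, beside 0.13 over all genes. For H2-Ab1, the gene with the smallest unadjusted p (0.0703; limma, adjusted p = 0.257), the 95% interval ran from -1.24 to 0.06, and for H2-Aa it ran from -1.52 to 0.65. Both high arrays were below both low arrays for 2 of the 6 genes, Cd74 and H2-Ab1, where 20.4% of all genes were so placed. The direction for H2-Aa, H2-Eb1, H2-DMa and Ciita turned when single arrays were left out. By mean, high was lowest, low came next and negative was highest for Cd74, H2-Aa, H2-Ab1, H2-Eb1 and H2-DMa, whereas low was lowest for Ciita. The step between low and high was called for none of them.

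Within the high gate replicate 1 was below replicate 2 for most members, by unequal amounts. Replicate 1 was below replicate 2 by 1.47 for H2-Aa, 1.36 for H2-DMa, 0.80 for H2-Eb1, 0.44 for Ciita and 0.08 for Cd74, while for H2-Ab1 it was above by 0.47. H2-Aa and H2-Ab1, whose products pair, thus differed between the 2 high arrays in opposite directions. Gaps within the low gate were 0.60 or less and within the negative gate 0.48 or less. The mean z score of the 6 genes over the 6 arrays was -1.2 and -0.15 on the high, -0.49 and -0.15 on the low, and 0.74 and 1.25 on the negative arrays, which puts replicate 1 of the high gate lowest and both negative arrays on top.

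On chromosome 17 most members sit in 1 cluster, in the order H2-Oa, Brd2, H2-DMa, H2-DMb2, H2-DMb1, Psmb9, Tap1, Psmb8, Tap2, H2-Ob, H2-Ab1, H2-Aa, H2-Eb1, H2-Eb2 and Btnl2 in the RefSeq gene table. Of these 15 protein-coding genes 13 had a probe set of their own. The 3 neighbours H2-Ab1, H2-Aa and H2-Eb1 had the differences given above. On either side of them H2-Ob, a chain of the H2-DO inhibitor of H2-DM, differed by 0.22 ± 0.20 in high and -0.27 ± 0.20 in low against negative cells. H2-Eb2 was dim, not above background on either low array, and was not called. H2-Oa, the partner of H2-Ob, had 4.62 and 5.02 on the high arrays, 4.29 and 4.42 on the low arrays, and 5.11 and 5.80 on the negative arrays. Its 3 gates were apart, with low lowest. H2-Oa differed by -0.63 ± 0.28 in high cells (limma, adjusted p = 0.242) and by -1.10 ± 0.28 in low cells (limma, adjusted p = 0.0740), and neither was called. Tap1, the peptide transporter of the class I route in the same cluster, was called in high cells, as described for the class I genes, and Tap2 differed by 0.01 ± 0.25 there. Psmb9 differed by -1.61 ± 0.58, Psmb8 by -1.39 ± 0.32, Btnl2 by -1.02 ± 0.36 and Brd2 by 0.19 ± 0.20 in high against negative cells. In low against negative cells these differences were -0.38, -0.42, -0.87 and 0.24. None was called in either gate (limma, adjusted p = 0.0601 or more). Among the 5 measured genes of the list of other class II region genes (H2-Oa, H2-Ob, H2-Eb2, H2-Ea and Btnl2), limma called 0 in either comparison with negative cells, and 1 in high and 2 in low cells had an unadjusted p under 0.05.

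Among genes that prepare peptides for class II molecules the few calls were upward, though more of the differences lay below 0. Against negative cells 7 of 12 were below 0 in high cells and 7 of 12 in low cells. Their median difference was -0.19 in high and -0.14 in low cells, beside 0.10 and -0.03 over all genes. Of 12 measured processing genes, 2 were called higher and 0 lower in high against negative cells, and 1 higher and 0 lower in low against negative cells. Over all genes 1.36% were called higher in high and 3.42% in low cells. Lgmn, the asparaginyl endopeptidase that begins the cutting of the invariant chain, had RMA values of 8.93 and 7.93 on the high arrays, 6.54 and 7.31 on the low arrays, and 5.84 and 5.60 on the negative arrays. The gates were apart, in the reverse of the members' order. Lgmn rose 6.53-fold in high against negative cells (2.71 ± 0.39; limma, adjusted p = 0.0186) and differed by 1.2 ± 0.39 in low cells (limma, adjusted p = 0.145). Ctsl, cathepsin L, which cuts the invariant chain in some epithelia, had 7.09 and 5.92 on the high arrays, 7.35 and 7.75 on the low arrays, and 4.81 and 5.36 on the negative arrays. It rose 5.52-fold in low cells (2.46 ± 0.41; limma, adjusted p = 0.0189), and differed by 1.42 ± 0.41 in high cells (limma, adjusted p = 0.108). Cd63, a membrane protein of late endosomes, rose 2.08-fold in high cells (1.06 ± 0.18; limma, adjusted p = 0.0287). The Lgmn call was lost without either negative array, and the Ctsl call without any low or negative array. The Cd63 call was lost without any array but replicate 1 of the high gate. For Cd63, leaving out a low array is the fit of only the high and negative gates, which also lost the call.

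A pair of the same 12 genes, known from antigen-presenting cells, was chosen after their values were seen, so it does not stand for the list. Ifi30, the thiol reductase of endosomes, had 7.02 and 8.59 on the high arrays, 7.80 and 8.05 on the low arrays, and 8.83 and 9.12 on the negative arrays, the same order of arrays within the high gate as H2-Aa. Its differences were -1.17 ± 0.47 in high and -1.04 ± 0.47 in low cells, and neither was called (limma, adjusted p = 0.208 and 0.308). Ctss, cathepsin S, the last cutter of the invariant chain in dendritic and B cells, differed by -0.71 ± 0.21 in high and -0.27 ± 0.21 in low cells, also without a call (limma, adjusted p = 0.118 and 0.652).

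The factors that hold Ciita on class II promoters were measured by 9 genes of RFX, NF-Y, CREB and their acetylase partners, all above background on average. In high against negative cells 1 of the 9 was called, higher, and 4 had an unadjusted p under 0.05 in the limma fit. Over all genes 1.36% were called higher there. In low against negative cells limma called 0, and 0 had an unadjusted p under 0.05. Nfyb, a subunit of NF-Y, had 7.38 and 7.40 on the high arrays, 6.89 and 6.65 on the low arrays, and 6.51 and 6.23 on the negative arrays. The gates were apart with high on top. Nfyb rose 2.03-fold in high cells (1.02 ± 0.20; limma, adjusted p = 0.0395), a call lost on leaving out any 1 of the 6 arrays. For a low array that loss is the one from fitting only the high and negative gates. Rfx5, the RFX subunit that contacts DNA, lay between 4.71 and 5.31 on all arrays and differed by 0.30 ± 0.22 in high and 0.33 ± 0.22 in low cells (limma, adjusted p = 0.454 and 0.557).

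Interferon gamma signalling, the usual inducer of Ciita, was read from 21 measured genes. In high against negative cells 0 were called higher and 2 lower, where 1.36% and 3.35% of all genes were. In low against negative cells 2 were called higher and 1 lower, where 3.42% and 2.54% of all genes were. The list's median difference was -0.18 in high and 0.16 in low cells, beside 0.10 and -0.03 over all genes. Ifngr2, the receptor chain that carries Jak2, was the gene called in both. Its values were 7.83 and 8.04 on the high arrays, 8.15 and 8.42 on the low arrays, and 9.33 and 9.76 on the negative arrays, the same order of gates as Cd74 with no overlap. It was 3.05-fold lower in high cells (-1.61 ± 0.23; limma, adjusted p = 0.0185) and 2.40-fold lower in low cells (-1.26 ± 0.23; limma, adjusted p = 0.0251). Irf8, a transcription factor of B and myeloid cells, fell by 1.22 ± 0.24 on the log2 scale in high cells (limma, adjusted p = 0.0425). Jak1, the kinase of the other receptor chain, rose by 0.96 ± 0.19 in low cells (limma, adjusted p = 0.0320), and Gbp4, an interferon-induced GTPase, rose by 1.25 ± 0.27 there (limma, adjusted p = 0.0447). Irf1, which acts between the receptor and Ciita, differed by -0.77 ± 0.24 in high and 0.22 ± 0.24 in low cells and was not called (limma, adjusted p = 0.121 and 0.780). Leaving out either negative array ended every one of these calls, and so did either low array for the 3 calls in low cells (adjusted p = 0.0900 to 0.235 over those 4 arrays). The Irf8 call was also lost without replicate 2 of the high gate, and under 4 of 10 other settings (limma, adjusted p = 0.0620 to 0.0911). A fit of only the high and negative gates was 1 of those settings, and leaving out either low array gave that same fit. The adjusted p of Ifngr2 in high cells without either negative array was 0.106 and 0.142. The Gbp4 call in low cells ended under both other scalings too (adjusted p = 0.0660 and 0.105), and those of Ifngr2 (0.0516) and Jak1 (0.0684) each under 1 setting.

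The class I route loads peptides from the proteasome and is run by the related co-activator Nlrc5. Of 14 measured genes 5 were called lower and 0 higher in high against negative cells, where 3.35% and 1.36% of all genes were. In low against negative cells limma called 0, and 2 had an unadjusted p under 0.05. The median difference of the 14 genes was -0.90 in high and -0.15 in low cells, beside 0.10 and -0.03 over all genes. Tap1 had 5.80 and 5.46 on the high arrays, 6.60 and 6.67 on the low arrays, and 6.76 and 7.19 on the negative arrays. The low arrays lay just under the negative ones and the high arrays stood clear below. Tap1 fell by 1.35 ± 0.23 in high cells (limma, adjusted p = 0.0267), Psmb10, a catalytic subunit of the immunoproteasome, by 1.37 ± 0.24 (0.0314), and Erap1, which trims peptides in the endoplasmic reticulum, by 1.07 ± 0.19 (0.0327). Psme1 and Psme2, the subunits of the proteasome activator PA28, fell by 0.91 ± 0.18 (limma, adjusted p = 0.0420) and by 1.24 ± 0.26 with an adjusted p that rounds to the threshold of 0.05. Each of these calls was lost without either negative array, and quantile normalization ended all 5. Each was also lost when only the high and negative gates were fitted, which is what leaving out either low array amounts to. B2m, the light chain of class I, differed by -0.39 ± 0.19 in high and -0.05 ± 0.19 in low cells, and Nlrc5 by 0.51 ± 0.20 and 0.30 ± 0.20, with no call. In high against low cells 3.89% of all genes were called lower. Tapbp, tapasin, the peptide editor of class I, was the 1 gene called of the 14 there, at -1.07 ± 0.20 (limma, adjusted p = 0.0338). That call was lost on leaving out any 1 of the 6 arrays, where leaving out a negative array is the fit of only the 2 gates compared. For Cd74, H2-Ab1 and H2-Eb1 the low gate lay nearer the high gate, and for Tap1 it lay nearer the negative gate, a contrast that was not tested.

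**Figure D3:**
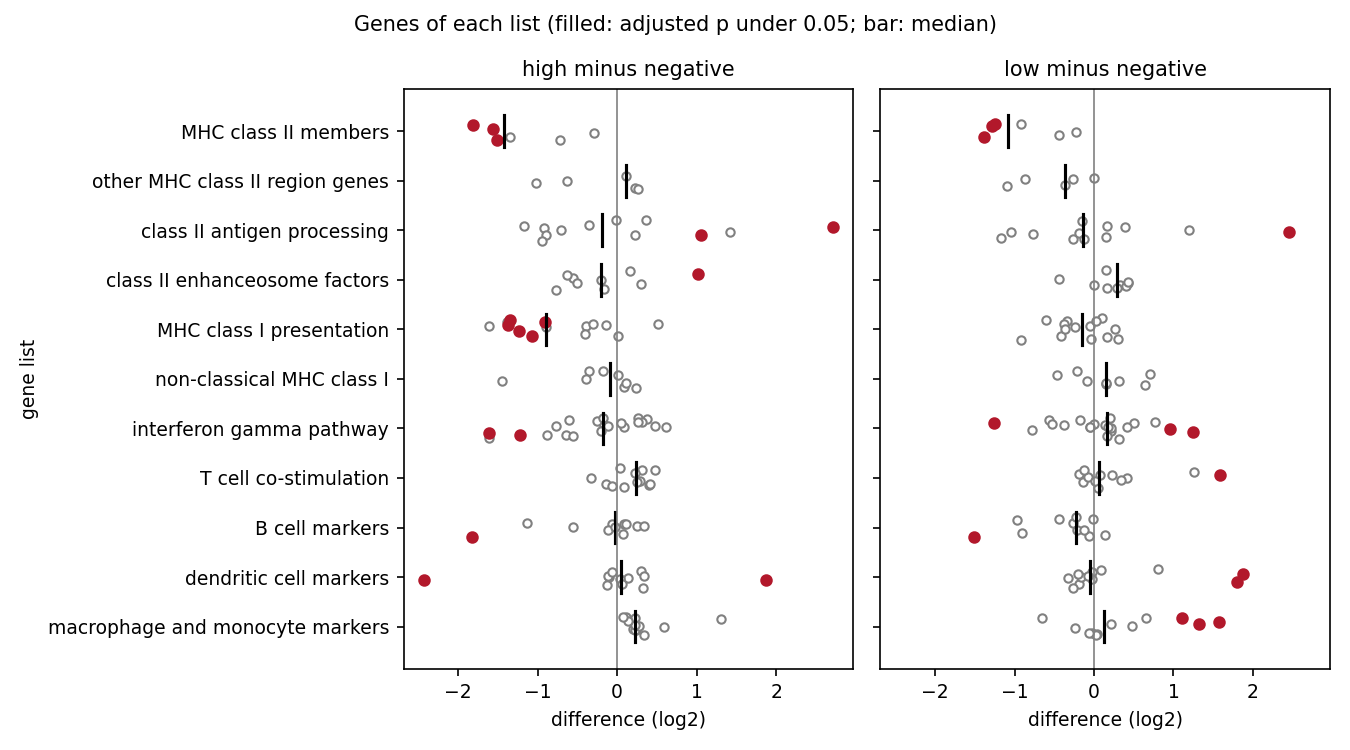
Log2 differences of the genes of each list in high minus negative (left) and low minus negative (right). Each point is a gene, filled where its adjusted p is under 0.05, and bars are list medians. The class II members lie left of 0 in both panels, with medians of -1.43 and -1.08.

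Single markers of other cells that carry class II molecules differed between the gates. Of 11 measured B cell markers 1 was called lower in high cells and 1 in low cells against negative cells, where 3.35% and 2.54% of all genes were. The list's median difference was -0.03 in high cells (6 of 11 below 0) and -0.23 in low cells (10 of 11 below 0), beside 0.10 and -0.03 over all genes. Cd79b, a chain of the B cell receptor, had 5.27 and 5.45 on the high arrays, 6.17 and 6.27 on the low arrays, and 6.73 and 7.65 on the negative arrays, in the same order as Cd74. It was 3.56-fold lower in high cells (-1.83 ± 0.31; limma, adjusted p = 0.0264) and differed by -0.97 ± 0.31 in low cells (limma, adjusted p = 0.139). The Cd79b call in high cells was lost on leaving out any 1 array, which for a low array is the fit of only the 2 gates compared. Cd79a, its partner, was above background on both negative arrays (4.46 and 5.03) and on no high or low array. It was called in low cells, lower by at least 0.51 on the log2 scale (limma, adjusted p = 0.0194), and not in high cells (0.0538). That call was lost without either low or either negative array (adjusted p = 0.0618 to 0.126). Cr2, Fcer2a and Bank1 of the same list, picked after their values were seen, were not above background on any array. The summed linear signal of the B cell list was 204 to 267 on the high, 218 to 236 on the low and 298 to 404 on the negative arrays. Only 5 of the 11 genes were above background on average, so much of this sum in the high and low gates is signal near the floor. The sum of the 6 class II genes was 941 to 1292 on the high, 1262 to 1492 on the low and 2704 to 3276 on the negative arrays. It comes from other probe sets, so the sizes of the 2 sums cannot be set against each other.

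Plasma cell markers gave 1 of 7 lower in each gate, and 1, Prdm1, higher in low cells. Over all genes 3.35% were called lower in high cells, and 2.54% lower and 3.42% higher in low cells. Jchain was above background on both negative arrays only, and lower by at least 2.75 on the log2 scale in high (limma, adjusted p = 0.0017) and in low cells (limma, adjusted p = 0.000725). The summed linear signal of the plasma cell list was 454 to 575 on the high, 485 to 529 on the low and 538 to 542 on the negative arrays. Most of it in the high and low gates is Xbp1, with means of 8.39 and 8.33.

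A few dendritic cell and macrophage markers were higher in low cells. Itgax, the CD11c integrin of dendritic cells and of some intraepithelial lymphocytes, had 4.31 and 4.55 on the high arrays, 6.27 and 6.57 on the low arrays, and 4.26 and 4.80 on the negative arrays. The low arrays stood alone and the other gates overlapped. Itgax rose 3.69-fold in low against negative cells (1.88 ± 0.25; limma, adjusted p = 0.00871). C1qa, a complement gene of macrophages, rose 2.5-fold (1.32 ± 0.19; limma, adjusted p = 0.0127) and C1qb 2.15-fold (1.11 ± 0.20; limma, adjusted p = 0.0246) in low cells, and Lyz2 rose 2.97-fold (1.57 ± 0.30; limma, adjusted p = 0.0293). Leaving out single low or negative arrays ended these calls (adjusted p = 0.0640 to 0.192 over the 4 genes). In all, 2 of 12 dendritic cell and 3 of 12 macrophage markers were called higher and 0 lower in low cells. Over all genes 3.42% were called higher and 2.54% lower there. The 2 dendritic cell calls were Itgax and Itgae, and both genes are also used by lymphocytes of the epithelium. Cd74, H2-Ab1 and H2-Eb1 fell in the same low cells. The median difference in low cells was -0.05 for the dendritic cell list, with 8 of 12 below 0, and 0.13 for the macrophage list, beside -0.03 over all genes. In high cells 1 of 12 dendritic cell markers was called higher, Sirpa, and 1 lower, Itgae, which lymphocytes of the epithelium also use. Over all genes 1.36% were called higher and 3.35% lower in high cells. Of the 12 macrophage markers limma called 0 in high cells, and 2 had an unadjusted p under 0.05. Several defining markers were not above background on any array: Xcr1, Clec9a, Cd209a and Clec10a of dendritic cells, and Adgre1, Mrc1 and Ccr2 of macrophages. Summed linear signals were 319 to 393 on the high, 1153 to 1305 on the low and 461 to 539 on the negative arrays for the dendritic cell list. Most of the dendritic sum on the low arrays is Itgae, at 9.78 and 9.96, which is on the lymphocyte list as well. For the macrophage list they were 764 to 782 on the high, 729 to 1047 on the low and 411 to 490 on the negative arrays. Most of the macrophage sum in the high and low gates is 1 gene, Lyz2, with means of 8.81 and 9.06.

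**Figure D4:**
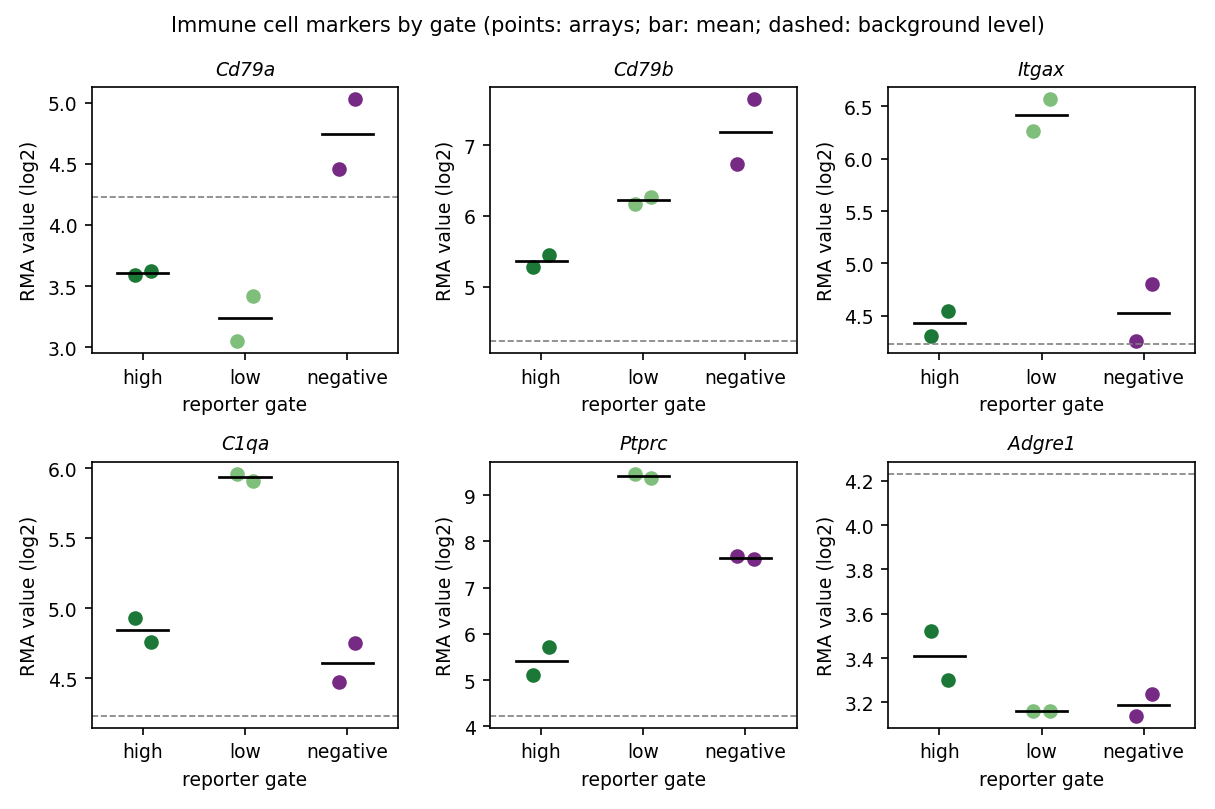
RMA values (log2) of immune cell markers on each array, by reporter gate. Points are arrays, bars are means of 2 arrays and the dashed line is the background level of 4.23. Cd79b has its highest values on the negative arrays, Itgax, C1qa and Ptprc on the low arrays, and Adgre1 is below the dashed line on all 6 arrays.

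Most T cell and intraepithelial lymphocyte markers differed in opposite directions in high and low cells, in both of which Cd74, H2-Ab1 and H2-Eb1 were lower. Of 13 measured markers 10 were called lower and 0 higher in high cells, and 7 were called higher and 0 lower in low cells, each against negative cells. Over all genes 3.35% were called lower in high and 3.42% higher in low cells. Differences were below 0 for 12 of the 13 in high and 2 of the 13 in low cells, down to -1.53 in low cells. The median was -1.64 in high and 1.43 in low cells, beside 0.10 and -0.03 over all genes. Ptprc, the CD45 antigen of all white blood cells, had 5.11 and 5.72 on the high arrays, 9.46 and 9.37 on the low arrays, and 7.69 and 7.61 on the negative arrays. It was 4.70-fold lower in high cells (-2.23 ± 0.24; limma, adjusted p = 0.0111) and 3.40-fold higher in low cells (1.77 ± 0.24; limma, adjusted p = 0.00959), and both calls were lost without either negative array, the call in low cells also without either low array (adjusted p = 0.0571 to 0.119). Summed linear signals of this list were 2274 to 2586 on the high, 18853 to 19023 on the low and 7227 to 8421 on the negative arrays.

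The summed signal of the epithelial markers was highest on the negative arrays, though few of these genes were called. Summed linear signals of 12 epithelial markers were 6736 to 11275 on the high, 11527 to 11839 on the low and 16358 to 16966 on the negative arrays, and 1, Krt20, was called lower in high cells and 0 in low cells (limma; 8 and 6 with an unadjusted p under 0.05). The differences from negative cells were below 0 for 10 of the 12 in high and 9 of the 12 in low cells. Of 15 enterocyte markers 4 were called lower in high and 3 in low cells. Their summed linear signals were 10574 to 17508 on the high, 11380 to 21362 on the low and 22836 to 31325 on the negative arrays. Of 11 measured cell cycle genes 8 were called lower in high and 10 in low cells. Paneth cell markers were called higher for 9 of 11 in both gates, and enteroendocrine markers for 2 of 15 in high and 15 of 15 in low cells. Of 12 stem cell markers 2 were called higher in high cells, Sox9 and Lgr5, and 2 lower in low cells, Slc12a2 and Rnf43. Beside these counts, 3.35% of all genes were called lower and 1.36% higher in high cells. In low cells 2.54% of all genes were called lower and 3.42% higher. The part of the B cell, plasma cell, enterocyte, cell cycle, Paneth, enteroendocrine and lymphocyte markers in the class II difference was not tested.

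The genes most like the members were found by correlating each gene with the mean z score of the 6 members over the 6 arrays, among 3963 genes above background that varied over the arrays. Their Pearson r ranged from 0.9874 to 0.9965 over 6 arrays for Bri3bp, Idh3g, Ciao2b, Kcnq1, Tmem45b and Pigyl. The points share the same arrays and gates, and the genes were picked for this likeness, so no test applies. Bri3bp had 6.08 and 6.80 on the high arrays, 6.59 and 6.77 on the low arrays, and 7.23 and 7.60 on the negative arrays. Kcnq1, a potassium channel gene, had 6.37 and 7.13 on the high arrays, 6.95 and 7.30 on the low arrays, and 7.93 and 8.13 on the negative arrays. Idh3g, a subunit of the isocitrate dehydrogenase of mitochondria, had 9.33 and 10.04 on the high arrays, 9.83 and 9.99 on the low arrays, and 10.52 and 10.75 on the negative arrays. In each of these genes, as in H2-Aa and H2-Eb1, replicate 1 of the high gate was lowest and the negative arrays were highest.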

How the data were processed

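Expression was measured on 1-colour Affymetrix arrays, and the 6 arrays of the reporter gates were analysed. RNA was extracted with the miRNeasy Mini Kit with DNase and amplified with Ovation Pico WTA System V2, per the labels' protocols. The deposited values are on a log2 scale: per the submitters' processing notes, the authors ran RMA in Affymetrix Expression Console (1.3.0.187), with options not given in the sources used. The 12 samples of the second line are not analysed, their columns being empty here.

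Of 35556 probe sets, 21789 had a single symbol, 1621 several and 12146 none in the annotation. For 999 genes with several probe sets the one with the highest mean was used, leaving 19938 genes. The fit used limma 3.58.1 (lmFit, eBayes, two-sided) in R 4.3.3 with 3 residual degrees of freedom, and was tested on simulated data. Only 2 arrays per gate limit the precision. Fold sizes are powers of the log2 differences. A gene not above background in the dimmer gate is given as at least the difference from that level. Summed linear signals add the antilogs of a list's genes.

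The members and all gene lists were chosen with earlier results of these data known. Named genes were the members, their neighbours in the class II region, up to 4 called genes of each list and comparison with the smallest p, a set of landmark genes (some are not reported here) and the 6 genes most like the members; the neighbours and any exceptions were picked with their values in view. Alternatives changed the prior, the scaling, the threshold, the array weights, the arrays fitted (each left out in turn), how probe sets were joined, whether dim genes were kept, and whether replicate numbers formed a block. Figures and tables were made with Python 3.11.15.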

Additional observations from a re-analysis of the deposited data

How the results depend on the processing

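The filter on dim genes, the mean of a gene's probe sets, array centring and array weights left 3 members called against negative cells in both gates. limma's trend and robust options and keeping every probe set on its own each left 2 in low cells, and a fit of only the 2 gates compared and quantile normalization each left 2 in high cells. Quantile normalization left 1 member called in low cells, and an adjusted p under 0.01 left 0 in either gate. Leaving out single arrays gave 0 to 3 members in low and 0 to 4 in high cells against negative cells. The count between high and low cells was 0 under every alternative run. Over all genes 1188 were called in low against negative cells, with 2150 under array weights, 353 at 0.01, 1914 at 0.1 and 187 to 1761 with an array left out. In high against negative cells 939 were called (272 higher, 667 lower), with 561 when only those gates were fitted, 621 under quantile normalization (324 higher, 297 lower), 620 under array weights, 61 at 0.01, 1817 at 0.1 and 13 to 1919 with an array left out. In high against low cells 978 were called, with 499 from those gates alone, 607 under array weights, 319 at 0.01, 1771 at 0.1 and 381 to 1739 with an array left out. Among counts with an array left out, the lowest come from leaving out a negative array in the first 2 comparisons and a low array in the third.

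With the replicate number as a block, the H2-Ab1 call in low cells was lost (limma, adjusted p = 0.0609) and 2 members stayed called there, while 3 stayed in high cells. The numbers were not shown to pair the arrays: same-numbered arrays deviated together at a Pearson r of 0.08 to 0.10 across genes, and there are only 2 numbers.

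Directions that turned belonged to uncalled differences. Between high and low cells, leaving out single arrays moved H2-Aa between -1.17 and 0.30, H2-Eb1 between -0.58 and 0.21, H2-DMa between -1.18 and 0.19 and Ciita between -0.06 and 0.38; Ciita was at -0.01 without replicate 1 of the low gate, and H2-Eb1 at 0.07 under quantile normalization. In low against negative cells the ranges were -0.09 to 0.02 for Adgre1, -0.12 to 0.01 for B2m and -0.02 to 0.46 for Irf1, and quantile normalization gave 0.0 for Adgre1 and 0.07 for B2m. In high against negative cells they were -0.31 to 0.28 for Cfap126 (0.06 without replicate 2 of the high gate) and -0.37 to 0.17 for Itgax (0.01 without replicate 1 of the high gate). The causes were not tested.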

Other observations

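Display of antigen to T cells also needs co-stimulation, and 12 such genes were measured, 6 of them above background on average. In low against negative cells, where 3.42% of all genes were called higher and 2.54% lower, 1 was called higher and 0 lower. That gene was Vsir, which encodes VISTA, an inhibitory ligand of T cells. Vsir had RMA values of 5.36 and 5.64 on the high arrays, 6.98 and 7.12 on the low arrays, and 5.27 and 5.66 on the negative arrays. The low arrays stood alone, as they did for Itgax. Vsir rose 3.00-fold in low against negative cells (1.58 ± 0.22; limma, adjusted p = 0.0105), a call lost without replicate 2 of the low gate or either negative array (adjusted p = 0.0546 to 0.0991). It was 2.92-fold lower in high than in low cells (-1.55 ± 0.22; limma, adjusted p = 0.0121), lost without either low array (0.0649 to 0.0811). In high against negative cells limma called 0 of the 12, and 1 had an unadjusted p under 0.05. Cd86, a classical co-stimulator of dendritic and B cells, named after its values were seen, was not above background on any array.

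Of 15 non-classical class I genes listed, 8 had a probe set of their own and 6 were above background on average. Against negative cells limma called 0 of the 8 in high and 0 in low cells, with 1 in each having an unadjusted p under 0.05. In high against low cells it called 0, with 3 under that value. Their median difference was -0.08 in high and 0.15 in low against negative cells, beside 0.10 and -0.03 over all genes.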
